A study of Mus musculus with 9 samples.

Results

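The 9 genes described here belong to the imprinted gene network of growth control: *H19*, *Meg3*, *Dlk1*, *Peg3*, *Mest*, *Plagl1*, *Grb10*, *Ndn* and *Peg10*. They were taken by name, through their Ensembl identifiers, from the 55416 genes of a count table of cultured AdvSca1-SM cells. The rule used no measured value, but the genes were chosen with earlier results of these data known. Counts of changed genes among the 9 are therefore descriptions only. All 9 were kept by the filter on low counts, among 14879 genes tested.

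Imprinted genes are transcribed mainly from the copy inherited from 1 parent, under the control of DNA methylation set down in the germ line. Paternally expressed members such as *Peg3*, *Mest*, *Plagl1*, *Dlk1*, *Ndn* and *Peg10* lie apart in the genome, while *H19* and *Meg3* are noncoding RNAs made from the maternal copy and *Grb10* is made from the maternal copy in most tissues and from the paternal copy in neurons. Many of these genes are high in embryonic tissues and in progenitor cells, fall together as tissues mature after birth, and are known to be coexpressed with the zinc finger factor *Plagl1*, which binds some of them. The libraries do not separate the parental copies, so every value below is the sum of both.

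The libraries came from cultured AdvSca1-SM cells, which are adventitial progenitors of smooth muscle origin that carry Sca1, the product of *Ly6a*. The cells were sorted as YFP+ and Sca1+ from aorta and carotid artery, with SM22α-Cre-YFP mice pooled. In these mice Cre is driven by the smooth muscle promoter SM22α, so that YFP reports smooth muscle lineage and not a cell's present state. There were 3 libraries in each of 3 groups, all incubated for 72 h and all with 0.1% DMSO. Stem cells received vehicle, TGF-β cells received 5 ng/mL TGF-β1, and Both cells received 5 ng/mL TGF-β1 plus 50 μM PFI-3, which occupies the bromodomain of the chromatin remodeler Brg1. By the study's account the Stem cells stayed in stem cell medium while the other groups were moved to DMEM with little serum, so the medium and TGF-β1 cannot be told apart in Stem versus TGF-β. PFI-3 is the only labelled difference between Both and TGF-β. The study calls the libraries independent replicates and speaks of biological replicates for its experiments as a whole. Since the cells came from pooled mice and no source ties a library to an animal, p-values measure only the spread between these libraries, which may be technical in part.

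Total counts ran from 35686291 to 47741128 per library. The 4 progenitor markers (*Ly6a*, *Cd34*, *Pdgfra* and *Scara5*) summed to between 50475 and 58767 normalized counts for Stem, between 6361 and 6638 for TGF-β and between 6784 and 7423 for Both, and all 4 fell past the threshold from Stem to TGF-β. Most of each sum was *Pdgfra*, the 1 of the 4 with a positive log2 fold change from TGF-β to Both. The other 3 were negative there, and the median of the 4 was -0.49. Of the 4, 1 was past the threshold, lower, where 0.47% of all genes were. *Scara5* went from 76.6, 108 and 92.8 normalized counts in TGF-β to 33.3, 56.3 and 34.2 in Both. The 4 smooth muscle markers did not move together. *Acta2* and *Tagln* rose (log2 fold changes 1.21 and 1.42), *Myh11* fell (-1.58), and *Cnn1* did not pass the test (-0.18). Their sum lay between 7837 and 9869 for Stem, 19892 and 22167 for TGF-β and 14809 and 15849 for Both. The label text on RNA extraction names hepatic tissue, whereas the 4 hepatocyte markers together never exceeded 2.63 normalized counts in any library. The sums for other cell types were small except for neural and dividing-cell genes, and several moved with the groups. The 4 adipocyte markers went from between 183 and 217 in Stem to between 39.6 and 44.9 in TGF-β, through *Fabp4*. The 4 endothelial markers went from between 5.43 and 15.7 to between 35.6 and 47.7, with *Kdr* past the threshold. The 4 Schwann or neural markers went from between 1958 and 2267 to between 2597 and 2845, nearly all of it *Tubb3*. The 6 markers of dividing cells went from between 1984 and 2150 to between 2172 and 2410, with 4 higher and 1 lower at the adjusted p. The 4 leukocyte markers were between 107 and 127 in Stem and 118 and 129 in TGF-β, which overlapped, and between 156 and 164 in Both. Most of this sum was *Lyz2*. The scarce *Cd68* rose past the threshold, from 7.33, 1.09 and 2.16 normalized counts in Stem to 10.8, 15.2 and 13.7 in TGF-β. The genes *Adgre1*, *Cidec* and *Sox10* were at 0 in all libraries. The leukocyte gene *Ptprc* was at 0 in Stem and at 2.16, 2.03 and 2.93 normalized counts in TGF-β. These changes of state or makeup move with the imprinted genes below, and their part in the results was not tested. In bulk RNA, fewer cells of a type and less RNA per cell cannot be told apart.

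For the genes whose promoters bear on what follows, a window from 250 bases before to 50 bases after the annotated start was taken from RefSeq. Of the 9 genes, 7 had 1 or more such windows, 11 in all. *H19* and *Peg10* had none and were not searched. The windows are given 5′ to 3′ on the gene's own strand in build GRCm38.p6, which is not the GRCm39 build of the count table. *Peg3* is shown because its window holds GGGGCCCC, a palindrome that Plagl1 is known to bind (capitals), starting 201 bases before the start site. *Plagl1* and *Meg3* are shown because their windows hold TGCCGC or its reverse complement GCGGCA, the hexamer that the imprint keeper Zfp57 binds when methylated (capitals), starting 90 and 190 bases before the start site.

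Peg3 (chr7:6730370-6730669, minus strand): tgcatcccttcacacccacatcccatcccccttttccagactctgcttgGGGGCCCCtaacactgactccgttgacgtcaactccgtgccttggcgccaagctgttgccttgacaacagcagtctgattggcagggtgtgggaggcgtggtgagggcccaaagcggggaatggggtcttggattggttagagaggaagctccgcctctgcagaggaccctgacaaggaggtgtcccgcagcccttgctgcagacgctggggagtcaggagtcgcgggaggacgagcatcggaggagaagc
Plagl1 (chr10:13090582-13090881, plus strand): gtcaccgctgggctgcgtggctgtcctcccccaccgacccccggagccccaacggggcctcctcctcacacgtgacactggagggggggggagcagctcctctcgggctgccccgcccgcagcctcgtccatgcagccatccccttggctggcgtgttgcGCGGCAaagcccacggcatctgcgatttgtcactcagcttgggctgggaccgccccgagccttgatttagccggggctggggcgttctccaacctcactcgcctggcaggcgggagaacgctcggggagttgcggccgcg
Meg3 (chr12:109540746-109541045, plus strand): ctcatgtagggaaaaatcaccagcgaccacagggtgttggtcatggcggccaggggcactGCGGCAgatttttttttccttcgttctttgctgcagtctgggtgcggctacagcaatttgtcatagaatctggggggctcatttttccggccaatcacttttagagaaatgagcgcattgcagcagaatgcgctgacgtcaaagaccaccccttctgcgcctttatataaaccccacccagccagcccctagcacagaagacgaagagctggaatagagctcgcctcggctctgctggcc

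Across all 32851 promoter windows in the table, searched on both strands, 1.08% held GGGGCCCC, 11.6% held TGCCGC and 0.213% held GTCTAGAC, the palindrome bound by SMAD3 and SMAD4. Among the 11 windows of the imprinted genes, GGGGCCCC was in that of *Peg3* and GTCTAGAC in 0. TGCCGC was in windows of *Plagl1*, *Meg3*, *Mest* and *Grb10*. The motifs do not overlap one another in these windows. The windows ranged in GC content from 50.3% to 80.0%, against a median of 52.7% over all windows, with the highest value in 1 of the *Grb10* windows. A match describes the letters only.

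*H19*, *Mest* and *Meg3* also carry microRNAs in their transcripts or introns, and these are given because a change in the host transcript is what these libraries measured, not the mature microRNA. The capitals mark the seed, bases 2 to 8, and no seed is shared between the 6 arms. The count table's own rows for the microRNA genes *Mir675* and *Mir335* were at 0 counts in all libraries. A count of 0 there does not show that the microRNA was absent. *Mir675* shares 84 bases with the exons of *H19* on the same strand, so its reads may not have been told apart from the host's.

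mmu-miR-675-5p (*H19*): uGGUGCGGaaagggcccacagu
mmu-miR-675-3p (*H19*): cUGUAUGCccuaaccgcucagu
mmu-miR-335-5p (*Mest*): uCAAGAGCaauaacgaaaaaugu
mmu-miR-335-3p (*Mest*): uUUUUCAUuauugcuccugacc
mmu-miR-770-5p (*Meg3*): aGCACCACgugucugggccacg
mmu-miR-770-3p (*Meg3*): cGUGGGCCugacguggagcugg

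In Stem cells the imprinted genes spanned a wide range of levels. Per kilobase of annotated exon, *Grb10* was the most abundant at 1674 ± 71.4 normalized counts (SD, n = 3), at percentile 94.7 of the tested genes. *H19* followed at 998 ± 152, *Peg10* at 867 ± 100.5 and *Ndn* at 730 ± 62.1. The libraries of *H19* and *Peg10* overlapped in this order, as did those of *Peg10* and *Ndn*. *Peg3* stood at 152 ± 16.5, *Plagl1* at 89.7 ± 20.7 and *Meg3* at 54.7 ± 1.68, with no overlap between neighbours. *Mest* at 16.8 ± 2.66 and *Dlk1* at 15.3 ± 5.66 were the lowest and overlapped with each other. The exon length of *Meg3*, 18089 bases, adds up many alternative exons, which lowers its value on this scale.

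In the TGF-β group the order differed. *Grb10* stayed on top at 1622 ± 95.1 normalized counts per kilobase, *Ndn* came next at 798 ± 29.1 and *H19* at 340 ± 42.5. *Peg10*, at 76.2 ± 7.55, now lay beside *Peg3*, at 66.1 ± 8.59, and their libraries overlapped. *Meg3* was at 35.4 ± 3.36. *Plagl1*, at 11.6 ± 0.45, overlapped with *Mest*, at 10.8 ± 1.94, and *Dlk1* was lowest at 1.80 ± 0.24. In Both the order was the same except that *Peg3*, at 98.0 ± 9.70, stood above *Peg10*, at 90.5 ± 5.59, again with overlapping libraries.

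**Figure D1:**
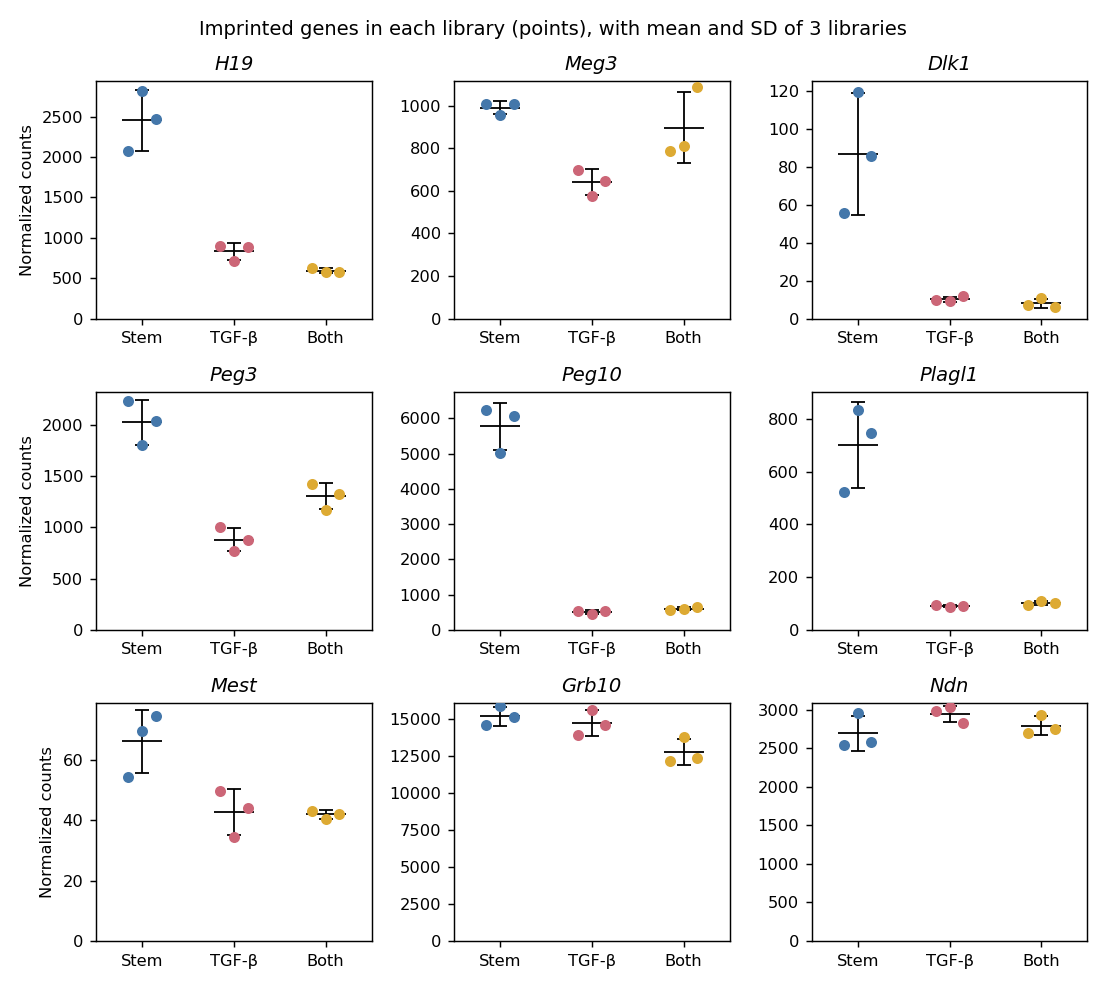
Normalized counts of the 9 imprinted genes in each library (points, 3 per group), with the group mean (horizontal line) and SD (bars) on a linear axis that starts at 0. *Peg10*, *Plagl1*, *Dlk1* and *H19* are low in all TGF-β and Both libraries, *Peg3* and *Meg3* are higher in Both than in TGF-β, and *Grb10* and *Ndn* stay near their Stem level.

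The comparison of Stem with TGF-β asks how these genes differ between cells kept in the progenitor state and cells driven toward myofibroblasts. Of the 9 genes, 5 were past the threshold, a Benjamini-Hochberg adjusted p below 0.05 in the quasi-likelihood test of edgeR together with a log2 fold change beyond 1 in size. All 5 were lower in TGF-β and 0 were higher, with DESeq2 as with edgeR, and 0 were higher at an unadjusted p below 0.05, against 38.1% of all genes. Over all tested genes, 14.5% were past the threshold lower in TGF-β and 10.6% higher. At the adjusted p alone, 7 of 9 were lower and 0 higher, against 37.7% and 37.3% of all genes. The libraries of Stem and TGF-β did not overlap for 7 of 9 genes, a pattern shown by 76.8% of all genes in this comparison. The median log2 fold change of the 9 genes was -1.20, and that of all tested genes was -0.00275.

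Cells of the TGF-β and Both groups all received TGF-β1, and their comparison asks whether these genes differ when PFI-3 is added. It shares its TGF-β libraries with the comparison above, so the values of both are given side by side for each gene. Here 0 of 9 genes were past the threshold, where 0.47% of all genes were lower and 0.161% higher. At edgeR's adjusted p alone, 2 of 9 genes were higher in Both and 2 lower, against 3.54% and 5.38% of all genes. The groups did not overlap for 6 of 9 genes, against 32.7% of all genes. DESeq2 likewise put 0 past the threshold, with 2 higher and 2 lower at its adjusted p, and 5 of 9 had an unadjusted p below 0.05 in edgeR's test, as did 24.1% of all genes.

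*Peg10*, a gene derived from a retrotransposon that is required for the placenta, had the largest estimated difference of the 9 between Stem and TGF-β, inside the interval of that of *Dlk1*. Its normalized counts were 6253, 5011 and 6068 in the Stem libraries, 527, 451 and 547 in those of TGF-β and 574, 591 and 645 in those of Both. All Stem libraries lay far above all others, and the Both libraries lay just above the TGF-β libraries without overlap. The level was 11.4-fold lower in TGF-β than in Stem (log2 fold change -3.51, SE 0.09, adjusted p = 1.17e-11, edgeR). From TGF-β to Both the difference was 0.25 on the log2 scale (95% interval 0.03 to 0.47, adjusted p = 0.152, edgeR), so the separation of the libraries did not pass the test over all genes.

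*Plagl1*, the zinc finger factor at the centre of the network, had normalized counts of 521, 835 and 749 in the Stem libraries, 94.96, 88.2 and 89.8 in those of TGF-β and 95.4, 110.5 and 100.1 in those of Both. Stem libraries were above all others, while those of TGF-β and Both nearly met. It was 7.70-fold lower in TGF-β than in Stem (log2 fold change -2.94, SE 0.17, adjusted p = 8.05e-09, edgeR). The difference from TGF-β to Both was 0.16 on the log2 scale, with an interval from -0.27 to 0.59 (adjusted p = 0.675, edgeR).

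*Dlk1* encodes a transmembrane protein of the Notch ligand kind that marks many progenitors and holds back fat cell formation. It had the lowest level per kilobase of the 9 in the TGF-β group. Its raw counts were 53, 110 and 79 in the Stem libraries, 9, 9 and 12 in those of TGF-β and 8, 11 and 7 in those of Both. In normalized counts it fell from 86.8 ± 32.0 (SD, n = 3) in Stem to 10.2 ± 1.36 in TGF-β, and Stem did not overlap with the others. The fall was 8.40-fold (log2 fold change -3.07, SE 0.33, adjusted p = 3.28e-06, edgeR). In Both it was at 8.07 ± 2.47, and at this depth the interval of its difference from TGF-β was wide (log2 fold change -0.35, 95% interval -1.41 to 0.71, adjusted p = 0.725, edgeR).

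*H19* is the noncoding RNA of the *Igf2* locus. Its normalized counts were 2072, 2821 and 2470 in the Stem libraries, 905, 716 and 887 in those of TGF-β and 630, 581 and 577 in those of Both, so that the 3 groups did not overlap. *H19* was 2.93-fold lower in TGF-β than in Stem (log2 fold change -1.55, SE 0.11, adjusted p = 6.62e-08, edgeR). It was lower again in Both than in TGF-β, by less than 2-fold (log2 fold change -0.49, SE 0.12, adjusted p = 0.0219, edgeR). That second call was lost when any of TGF-β 1, TGF-β 3, Both 1, Both 2 or Both 3 was left out, with adjusted p between 0.0511 and 0.0921. From Stem to Both the log2 fold change was -2.04 (adjusted p = 7.2e-09, edgeR).

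*Peg3* encodes a large zinc finger protein of stem and progenitor cells, and was the gene whose change with PFI-3 was kept in all alternatives tried. Its normalized counts were 2237, 1799 and 2040 in the Stem libraries, 998, 770 and 873 in those of TGF-β and 1423, 1168 and 1327 in those of Both. The Both libraries lay between those of the other groups, overlapping with neither. *Peg3* was 2.30-fold lower in TGF-β than in Stem (log2 fold change -1.20, SE 0.10, adjusted p = 4.32e-07, edgeR). It was higher in Both than in TGF-β (log2 fold change 0.57, SE 0.10, adjusted p = 0.00542, edgeR), and remained below Stem (log2 fold change -0.63, adjusted p = 0.000109, edgeR). Its promoter window, shown above, is the one that holds the Plagl1 palindrome among those searched, which did not include *H19* or *Peg10*.

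*Meg3*, the noncoding RNA made from the maternal copy of the *Dlk1* domain, moved in the same pattern by smaller steps. It had 1009, 955 and 1006 normalized counts in the Stem libraries, 697, 576 and 647 in those of TGF-β and 788, 811 and 1089 in those of Both. TGF-β was below both other groups without overlap, and the library Both 3 reached above the Stem libraries. *Meg3* fell by 0.63 on the log2 scale from Stem to TGF-β (SE 0.11, adjusted p = 0.000271, edgeR), and rose by 0.49 from TGF-β to Both (SE 0.11, adjusted p = 0.0189, edgeR). The rise was lost without TGF-β 2 (adjusted p = 0.0927) or TGF-β 3 (adjusted p = 0.0672). Between Stem and Both the difference was -0.14 (95% interval -0.38 to 0.10, adjusted p = 0.254, edgeR), and without the high library Both 3 it was -0.30 (adjusted p = 0.00425). In the annotation, 1228 of the 18089 exon bases of *Meg3* lie opposite exons of the noncoding gene *Gm26906*. Without a known strand setting, reads in that overlap may be mixed.

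*Mest*, which encodes a hydrolase-like membrane protein, was scarce, at 54.4, 69.5 and 74.6 normalized counts in the Stem libraries, 49.6, 34.5 and 43.9 in those of TGF-β and 43.2, 40.5 and 42.1 in those of Both. All Stem libraries were above all others, while TGF-β and Both overlapped. Its log2 fold change was -0.63 from Stem to TGF-β (SE 0.18, adjusted p = 0.00705, edgeR) and -0.02 from TGF-β to Both (95% interval -0.43 to 0.39, adjusted p = 0.965, edgeR). In the annotation, 912 of its 3945 exon bases lie opposite exons of *Copg2*, which rose from 1171 ± 105 normalized counts in Stem to 1740 ± 89.2 in TGF-β. The strand setting of the counting is not given in the sources used here, so reads in that overlap may not have been told apart.

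*Grb10*, an adaptor that binds the insulin and IGF1 receptors and restrains their signal, was the most abundant of the 9 and nearly level. Its normalized counts were 14589, 15885 and 15169 in the Stem libraries, 13946, 15663 and 14626 in those of TGF-β and 12203, 13824 and 12377 in those of Both. Stem and TGF-β overlapped, and Both was below the other groups. The log2 fold change was -0.05 from Stem to TGF-β (95% interval -0.17 to 0.08, adjusted p = 0.494, edgeR) and -0.20 from TGF-β to Both (SE 0.06, adjusted p = 0.0487, edgeR). This small fall was lost under 8 of the alternatives, with adjusted p up to 0.202, among them each fit that left out Stem 3, TGF-β 1, TGF-β 2, TGF-β 3, Both 1 or Both 3. Of its receptor partners, *Igf1r* fell from 19262 ± 391 to 8565 ± 177 normalized counts with TGF-β (log2 fold change -1.17, adjusted p = 4.62e-11, edgeR) and stood at 9737 ± 250 in Both (0.19, adjusted p = 0.00901), and *Insr* fell by 0.61 on the log2 scale with TGF-β (adjusted p = 7.5e-09, edgeR). With PFI-3 *Insr* differed by 0.03 (95% interval -0.04 to 0.11, adjusted p = 0.604, edgeR).

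*Ndn*, a MAGE family protein that restrains proliferation, had 2543, 2961 and 2589 normalized counts in the Stem libraries, 2985, 3033 and 2827 in those of TGF-β and 2694, 2932 and 2752 in those of Both. The 3 groups overlapped. The log2 fold change was 0.13 from Stem to TGF-β (95% interval -0.000158 to 0.26, adjusted p = 0.0656, edgeR) and -0.08 from TGF-β to Both (adjusted p = 0.461, edgeR). Without Stem 2, the highest Stem library, the first difference was 0.21 (adjusted p = 0.00129), and without TGF-β 3 it was 0.17 (adjusted p = 0.0472).

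**Figure D2:**
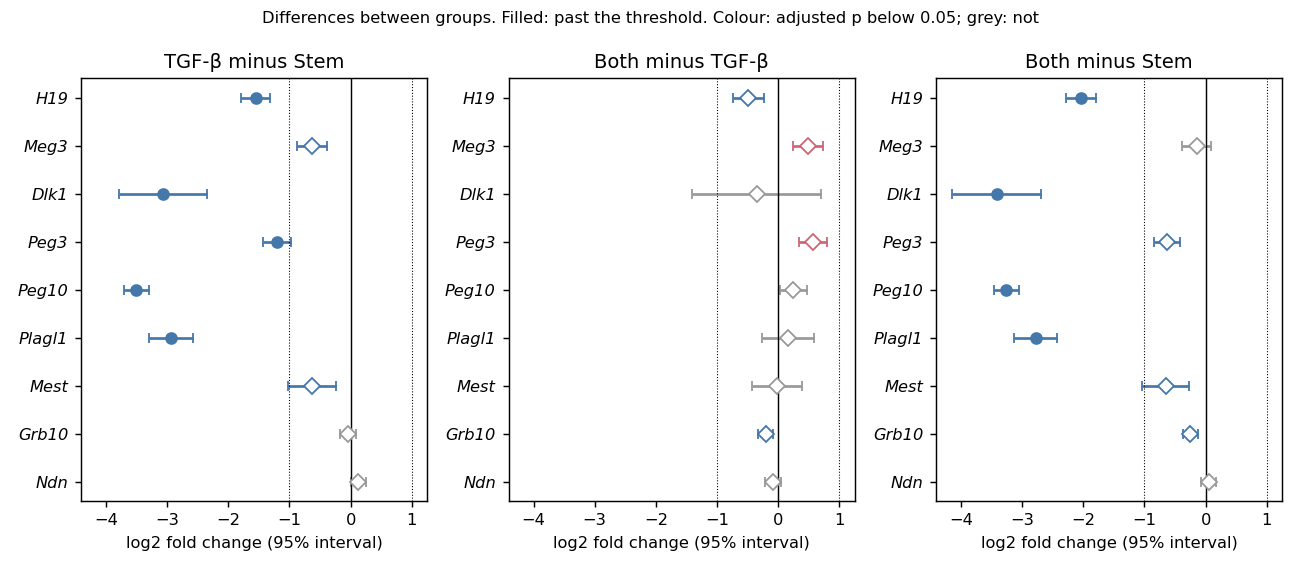
Log2 fold changes of the 9 imprinted genes with 95% intervals in the 3 comparisons, from the fit of all 9 libraries. Filled symbols are past the threshold, colour marks an adjusted p below 0.05 (blue lower, red higher) and grey marks the rest, with dotted lines at 2-fold. With TGF-β, 5 genes lie past the threshold on the lower side, and with PFI-3 no symbol is filled, with *Peg3* and *Meg3* in red and *H19* and *Grb10* in blue.

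Set against Stem, the cells that received both agents had 4 of 9 genes past the threshold, *H19*, *Dlk1*, *Plagl1* and *Peg10*, all lower, where 13.2% of all genes were lower and 9.55% higher. At the adjusted p alone 7 of 9 were lower and 0 higher, against 36.6% of all genes in each direction. The 3 genes furthest below Stem in the TGF-β group were also far below it with PFI-3 present. On the log2 scale of edgeR's fit, *Plagl1* stood at -2.78 (adjusted p = 1.13e-08), *Peg10* at -3.26 (adjusted p = 2.04e-11) and *Dlk1* at -3.42 (adjusted p = 1.58e-06).

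For each gene past the threshold with TGF-β, the tested gene with the most similar course was found over the 9 libraries among genes with a mean of at least 100 normalized counts. The measure was the root mean square difference of log2 normalized counts after centring each gene. For *Dlk1* the nearest gene was *Ly6a*, which encodes Sca1 itself (difference 0.27). The next nearest genes were almost as close, at 0.284 and 0.29, and the low counts of *Dlk1* in TGF-β and Both make this order loose. *Ly6a* fell from 7635 ± 971 normalized counts (Stem) to 941 ± 133 (TGF-β) and stood at 734 ± 83.4 with PFI-3. *Plagl1* was nearest to *Vegfd*, a lymphatic growth factor (0.107), at 19034 ± 2404, 2674 ± 126 and 3031 ± 220 in the same order. *Peg10* was nearest to the phosphodiesterase gene *Pde7b* (0.123) and *H19* to *Tmem176a* (0.130). *Peg3* was nearest to the kinase gene *Sgk1* (0.0934), which was at 6259 ± 599, 2679 ± 99.3 and 4282 ± 251. Such likeness describes the course of the values only.

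Other genes usually counted in the same network had a median log2 fold change of -1.80 with TGF-β. Of 8 such genes, all tested, 4 were past the threshold lower in TGF-β than in Stem and 1 higher. Over all genes the shares were 14.5% and 10.6%. *Cdkn1c*, an inhibitor of cell division, had 1070, 1128 and 1110 normalized counts in the Stem libraries and 20.5, 7.10 and 7.81 in those of TGF-β (log2 fold change -6.56, adjusted p = 1.88e-11, edgeR). *Igf2*, the fetal growth factor, had 156, 160 and 167 in the Stem libraries, 8.63, 6.08 and 0 in those of TGF-β and 7.20, 5.92 and 4.39 in those of Both (log2 fold change -5.04 with TGF-β, adjusted p = 5.35e-08, edgeR). These TGF-β values are only a few counts, so the size of the 2 changes is loosely set. *Slc38a4*, an amino acid transporter, fell (log2 fold change -3.55), as did *Dcn*, a matrix proteoglycan (-2.74).

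Against them *Gatm*, of creatine synthesis, rose from 3.59 ± 1.70 to 52.8 ± 12.1 normalized counts, and *Gnas* rose by 0.37 on the log2 scale (adjusted p = 1.37e-05, edgeR). *Igf2r*, which clears Igf2, fell by less than 2-fold (log2 fold change -0.62), as did *Sgce*, which shares its promoter region with *Peg10* (-0.87). With PFI-3, 0 of the 8 were past the threshold by edgeR or DESeq2, and 4 had an unadjusted p below 0.05 in edgeR's test, against 24.1% of all genes. At edgeR's adjusted p alone *Dcn* was lower in Both by a log2 fold change of -0.80 (adjusted p = 0.00103) and *Igf2r* by -0.20 (adjusted p = 0.00847).

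The domain of *Dlk1* and *Meg3* on chromosome 12 was followed along its genes. *Dio3*, the paternally expressed deiodinase at its far end, went from 158, 188 and 161 normalized counts in Stem to 11.9, 14.2 and 7.81 in TGF-β and 4.50, 11.8 and 13.2 in Both, as *Dlk1* did (log2 fold change -3.90 with TGF-β, adjusted p = 2.44e-08, edgeR). Next came the maternal noncoding RNAs of the domain. *Mirg*, the host of a large microRNA cluster, had 259, 302 and 241 normalized counts in the Stem libraries, 175, 127 and 168 in those of TGF-β and 216, 222 and 276 in those of Both. It fell by 0.77 on the log2 scale (adjusted p = 0.000349) and rose by 0.61 with PFI-3 (adjusted p = 0.0207, edgeR).

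*Rian*, the host of small nucleolar RNAs, had 4060, 5143 and 4613 normalized counts in the Stem libraries, 5519, 5318 and 5619 in those of TGF-β and 6534, 6574 and 6638 in those of Both. It was higher in TGF-β than in Stem by a log2 fold change of 0.25 (adjusted p = 0.00444) and higher again in Both by 0.26 (adjusted p = 0.0291, edgeR). *Meg3*, *Mirg* and *Rian*, the 3 maternal noncoding RNAs of the domain that were measured, were all higher in Both than in TGF-β at the adjusted p, while the means of *Dlk1* and *Dio3* lay between 8.07 and 11.3 normalized counts in these groups. *Rtl1* did not pass the filter on low counts.

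Around the other genes, neighbours moved in both directions. Beside *Peg10*, of 7 tested neighbours 2 were lower and 4 higher in TGF-β at the adjusted p, against 37.7% and 37.3% of all genes. The scarce *Asb4* was the one past the threshold (log2 fold change 1.06). Its normalized counts were 4.19, 9.78 and 11.9 in Stem and 14.0, 23.3 and 16.6 in TGF-β. Beside *Ndn*, of 6 tested neighbours 1 was past the threshold lower and 2 higher, where 14.5% and 10.6% of all genes were. *Snrpn*, a splicing protein gene, rose from 350 ± 37.8 normalized counts in Stem to 859 ± 27.8 in TGF-β (log2 fold change 1.30, adjusted p = 7.92e-09, edgeR) and *Atp10a*, a lipid flippase, from 733 ± 99.6 to 2926 ± 59.9 (log2 fold change 2.00, adjusted p = 2.15e-10). *Mkrn3* fell from 27.9 ± 3.28 to 8.56 ± 1.52 (log2 fold change -1.70). The low-count neighbour of *Peg3*, *Zim1*, had a log2 fold change of -0.82 with TGF-β (adjusted p = 0.0116, edgeR). Its difference with PFI-3 was -0.23 (95% interval -0.85 to 0.38, adjusted p = 0.677, edgeR), on 12.2 to 23.7 normalized counts a library in TGF-β and Both. The listed neighbour of *Grb10*, *Ddc*, did not pass the filter on low counts.

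**Figure D3:**
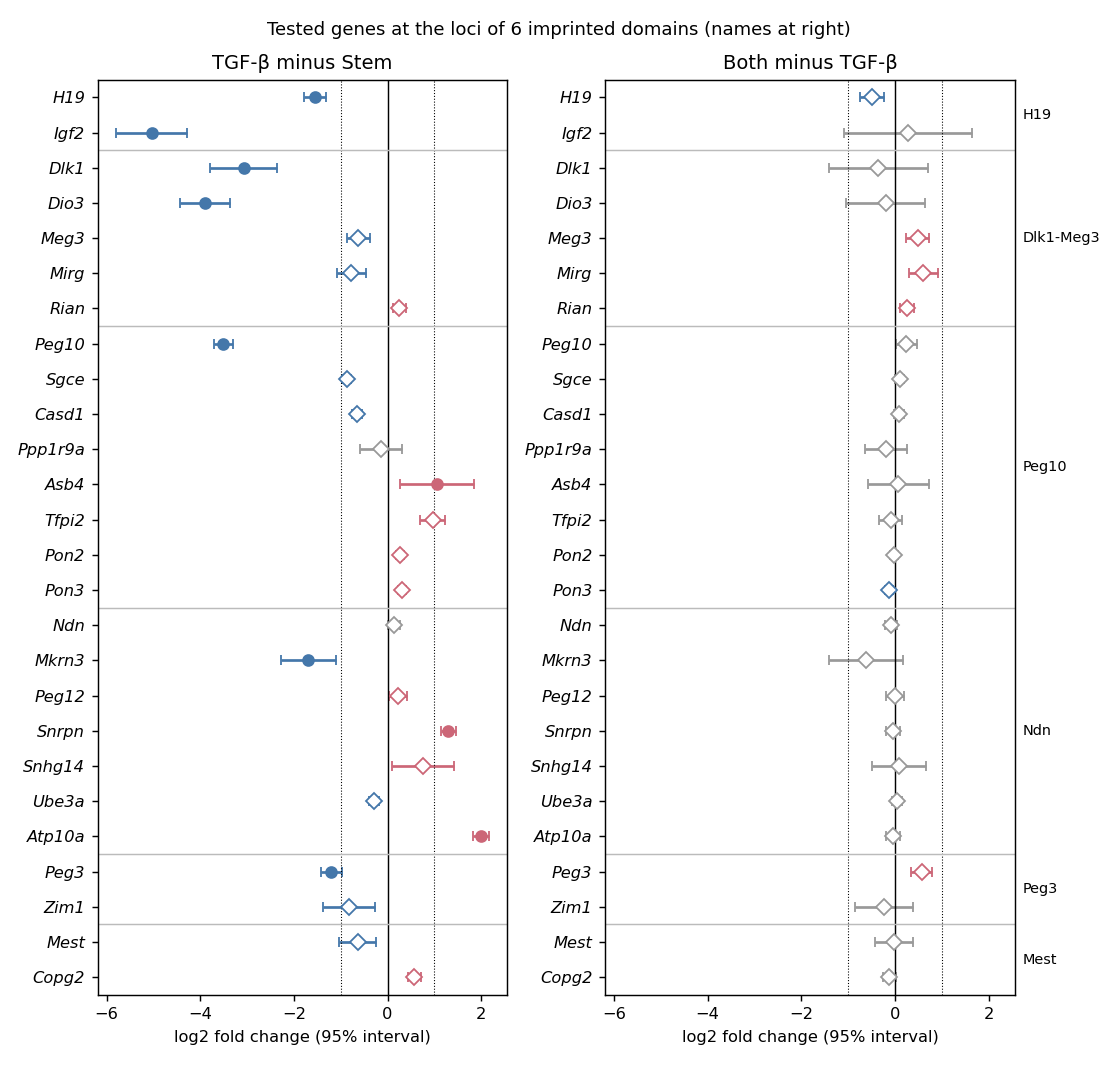
Log2 fold changes with 95% intervals of the tested genes at 6 imprinted domains, TGF-β minus Stem at left and Both minus TGF-β at right, with the domain named at the right edge and symbols as in the plot of the 9 genes' differences. *Peg10* stands at -3.51 beside neighbours between -0.87 and 1.06, and in the *Dlk1* domain *Meg3*, *Mirg* and *Rian* are in red at right while *Dlk1* and *Dio3* are grey.

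Imprinted genes beyond the 9 did not share 1 direction. The list of 57 takes in the 8 network genes and the locus neighbours above, so those are counted again here. Of the 57, 41 were tested, with a median log2 fold change of -0.14 with TGF-β. Past the threshold 11 were lower and 5 higher, where 14.5% and 10.6% of all genes were. The counts lower and higher were 10 and 5 with DESeq2, 10 and 4 with a prior count of 2, and 11 and 3 with total-count scaling. Among other genes listed as expressed from the paternal copy in mouse tissues, 14 of 21 were tested. Of these, 6 were lower and 1 higher, with a median of -0.61. The 6 were *Dio3*, *Nnat*, *Mkrn3*, *Kcnq1ot1*, *Airn* and *Nespas*, and *Snrpn* was the one that rose. In the TGF-β libraries *Nnat* was scarce, at 2.16, 3.04 and 4.88 normalized counts, as was *Nespas*, at 11.9, 4.06 and 8.79. *Airn* and *Nespas* are antisense to *Igf2r* and *Gnas*, so without a known strand setting their reads may be mixed. Among genes listed as expressed from the maternal copy in mouse tissues, 19 of 28 were tested, with a median of 0.25. Of these, 1 was lower (*Htr2a*, a serotonin receptor, log2 fold change -1.35) and 3 were higher (*Atp10a*, *Tssc4* and *Asb4*). Which copy was in use in these cells was not measured, so the medians compare lists and not parental copies. With PFI-3, 0 of the 41 were past the threshold by edgeR or DESeq2, and 11 had an unadjusted p below 0.05 in edgeR's test, near the 24.1% of all genes. At edgeR's adjusted p alone 3 were higher in Both (*Impact*, *Rian* and *Mirg*) and 3 lower (*Igf2r*, *Dcn* and *Pon3*), near the 3.54% and 5.38% of all genes.

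Genes that set, keep or, like the 3 *Tet* genes, remove DNA methylation were also counted, so the counts and medians mix opposing roles. Of 17 listed, 15 were tested, 3 were past the threshold and all lower in TGF-β than in Stem, where 14.5% of all genes were. At edgeR's adjusted p alone 14 were lower and 1 higher, against 37.7% and 37.3% of all genes, with a median log2 fold change of -0.51. The 3 were the methyltransferase gene *Dnmt3b* (log2 fold change -1.09), its partner *Dnmt3l* (-1.09) and the demethylase gene *Tet2* (-1.06). *Dnmt3b* and *Dnmt3l* were scarce, at 17.5 ± 4.76 and 9.76 ± 3.79 normalized counts in TGF-β. The maintenance methyltransferase gene *Dnmt1* fell from 2095 ± 247 to 1333 ± 76.2 normalized counts, by less than 2-fold (log2 fold change -0.65, adjusted p = 9.61e-06, edgeR), and *Zfp57* from 228 ± 8.95 to 126 ± 8.90 (log2 fold change -0.85, adjusted p = 5.5e-06). *Uhrf1*, the partner of Dnmt1, was the one that rose (log2 fold change 0.31, adjusted p = 0.0122). With PFI-3, 0 of the 15 were past the threshold by edgeR or DESeq2, and the median log2 fold change was 0.00252. At edgeR's adjusted p alone 2 were lower, *Tet3* (-0.27, adjusted p = 0.00801) and *Dnmt3a* (-0.22, adjusted p = 0.045), and 0 higher, and 5 had an unadjusted p below 0.05, against 24.1% of all genes. No DNA methylation was measured in these libraries.

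**Figure D4:**
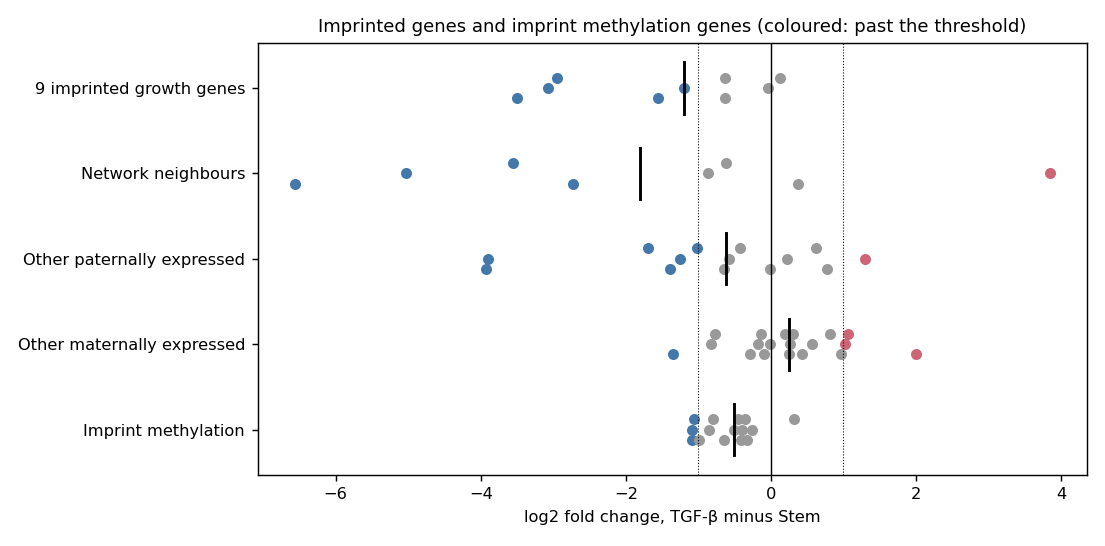
Log2 fold change from Stem to TGF-β of each tested gene in 5 lists (points, with small vertical offsets for legibility), with the list median as a black bar. Blue and red points are past the threshold, lower and higher, and dotted lines mark 2-fold. The 9 genes and their network neighbours have medians of -1.20 and -1.80. Other genes listed as maternally expressed in mouse tissues have a median of 0.25.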

How the data were processed

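The values are raw counts that the authors deposited as 1 table, with a row for each Ensembl gene and no normalization. The submitters' processing notes list HISAT2 2.2.1, SAMtools 1.13 and HTSeq 0.11.3 with build GRCm39, while the study's methods name Flexbar and STAR with the same build, and which of them made the table is not settled. The kit was stranded and ribo-depleted. The strand setting of the counting is not given in the sources used here.

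Under R 4.3.3, edgeR 4.0.16 (TMM, filterByExpr, quasi-likelihood test, prior count 0.125) fitted the 9 libraries together by group, and p-values were adjusted by Benjamini-Hochberg over 14879 genes. Normalized counts were scaled to the mean TMM library of 41184338, where 3 counts came to between 2.63 and 3.26. Intervals are at 95% and use the fit's moderated spread. The biological coefficient of variation was 6.13%. Symbols were paired with 52083 of 55416 identifiers. Exon lengths and overlaps came from GENCODE M21 (build GRCm38), for lengths and gene overlaps only. Promoter and microRNA sequences came from RefSeq.

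The threshold, an adjusted p below 0.05 and at least a 2-fold estimated change, is that of the study's methods, which name DESeq2. DESeq2 1.42.0, other scalings and filters, a prior count of 2, a mean of at least 10 counts, the 6 libraries compared, a replicate block, no fold-change minimum and each library left out were alternatives. All 9 genes are named. The lists were network genes, locus neighbours, imprinted genes and genes of imprint methylation. Of these, genes past the threshold, all network genes and any neighbour may be named. Other named genes (*Dnmt1*, *Dnmt3a*, *Tet3*, *Zfp57*, *Uhrf1*, *Insr*, and the imprinted genes past the adjusted p alone with PFI-3) were picked after their values were seen. The genes and lists were chosen with earlier results of these data known. Sets were described by counts and medians. On simulated Stem versus TGF-β counts of 14508 genes, edgeR recovered 200 of 200 changed genes with 3 false calls, and DESeq2 200 with 0. All planted changes lay beyond the fold-change minimum, in genes that were not scarce. The simulation therefore cannot speak to scarce genes, to smaller changes or to data in which most genes differ.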

Additional observations from a re-analysis of the deposited data

How the results depend on the processing

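Over 17 settings, 432 of 458 log2 fold changes of the 9 genes kept their call, and 0 called values reversed. All 5 genes past the threshold in Stem versus TGF-β stayed so in all 17 settings that kept the fold-change minimum. Without the fold-change minimum, the count in TGF-β versus Both was 4 in place of 0 and that in Stem versus Both 7 in place of 4, and the counts of other imprinted genes were 37 with TGF-β and 6 with PFI-3. Total-count scaling, which shifted the median of all genes by -0.119 (log2) in Stem versus TGF-β, gave *Grb10* a log2 fold change of -0.16 there (adjusted p = 0.0175). In TGF-β versus Both, the fall of *Grb10*, which passed at the adjusted p alone, no longer did so with DESeq2's size factors (-0.21, adjusted p = 0.0523) and with total counts (-0.19, adjusted p = 0.0528). With no filter, *Ndn* passed the adjusted p in Stem versus TGF-β (0.14, adjusted p = 0.0247) and *Peg10* in TGF-β versus Both (0.25, adjusted p = 0.00705), and *Peg10* did so in the fit of the 6 libraries (0.25, adjusted p = 0.0472), in which *Dlk1* was removed by the filter. The replicate numbers of the labels were not taken to pair the libraries: of 9 same-numbered pairs, 5 had a correlation of deviations over 0.1 (range -0.0428 to 0.436, with the 3 pairs of number 2 between 0.371 and 0.436), and 4 of 9 libraries matched their own number best. With the replicate block, *Ndn* in Stem versus TGF-β (0.13, adjusted p = 0.0094) and *Peg10* in TGF-β versus Both (0.25, adjusted p = 0.0228) passed. The cause of these changes was not tested. Leaving out each library in turn, the log2 fold change from TGF-β to Both ranged from -0.59 to -0.43 for *H19*, 0.32 to 0.57 for *Meg3*, -0.26 to -0.16 for *Grb10* and 0.17 to 0.30 for *Peg10* (past the adjusted p without Stem 2). From Stem to TGF-β it ranged from 0.0899 to 0.21 for *Ndn*. From Stem to Both it ranged from -0.30 to -0.0502 for *Meg3* and 0.0147 to 0.13 for *Ndn* (past the adjusted p without Stem 2). The number of genes past the adjusted p with PFI-3, 4 in all libraries, ranged from 1 to 5, with 2 without TGF-β 1, TGF-β 2, Both 1 or Both 3 and 1 without TGF-β 3, where *Peg3* alone remained. Depth limits *Dlk1*, with 7 to 12 counts in TGF-β and Both.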
